A study of Canis lupus familiaris with 12 samples.

Results

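Messenger RNA was compared between carprofen-treated and untreated cells of Mi/CMM1, a line grown from an oral melanoma of a dog, on 6 of the 12 one-colour arrays of the series. The 6 arrays are the 3 titled as carprofen and the 3 titled as control, both at 6 h, and the remaining 6 hold the same line exposed to piroxicam or robenacoxib. Carprofen was given at 779 µM for 6 h according to sample labels and series design, which call the dose the half-maximal inhibitory concentration. The treatment protocol gives 116 µM and 24 h, and which of the versions holds was not settled here. For piroxicam these doses are given the other way round. All groups are the same line grown in culture, the series design calls the replicates biological without saying how the cultures were separated, and the p-values measure the spread between these 3 arrays a group. The control cells are described as having had no treatment, and no vehicle is named. Carprofen 1 lay on the slide that also held the 3 controls, whereas carprofen 2 and 3 lay on a slide with piroxicam 1 and 2.

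Carprofen is a nonsteroidal anti-inflammatory drug of the propionic acid class that is widely given to dogs. Drugs of this kind block cyclooxygenases, the enzymes that turn arachidonic acid into the precursor of prostaglandins and thromboxane, which then act on their own families of cell-surface receptors. The inducible cyclooxygenase is often produced by dog oral melanomas, and prostaglandin E is linked there to growth, vessel formation and immune evasion.

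All levels below are log2 signals relative to the 75th percentile of the same array, so a level of 0 is that percentile and a change is the carprofen mean minus the control mean, with limma's standard error (SE). Adjusted p-values are limma's, adjusted by Benjamini-Hochberg over all 31996 tested probes, and a difference was called below 0.05. The melanocyte regulator MITF was measured at -0.55 ± 0.02 in control (SD, n = 3) and RAB27A, which moves melanosomes, at 2.90. TYR, KIT and EDNRB, also melanocyte genes, were not well above background on all arrays of any group. MC1R, SLC45A2 and MLPH lay between -6.58 and -5.09 in control, and PMEL, MLANA, DCT, TYRP1 and SOX10 had no probe that could be named, so the lineage could be checked on few genes. The collagen genes COL1A1 and COL1A2, which served as fibroblast markers, lay at 3.41 and 6.00 in control, while DCN lay at -5.26.

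Carprofen was followed by many small differences and few large ones. Of the 31996 probes, 10477 (32.7%) differed, 4288 (13.4%) higher and 6189 (19.3%) lower with carprofen. The carprofen and control arrays did not overlap for 47.1% of probes. A change of at least 1.5-fold was reached by 647 probes (2.02%) that were higher and 71 (0.222%) that were lower, and one of at least 2-fold by 65 (0.203%) and 10 (0.0313%). Among the 614 genes that could be named and tested, 215 (35%) differed: 69 (11.2%) were higher and 146 (23.8%) lower, with a median absolute change of 0.20. At least 1.5-fold, 10 genes (1.63%) were higher and 1 (0.163%) was lower. The median change was -0.02 over all probes and -0.04 over the named genes.

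**Figure D1:**
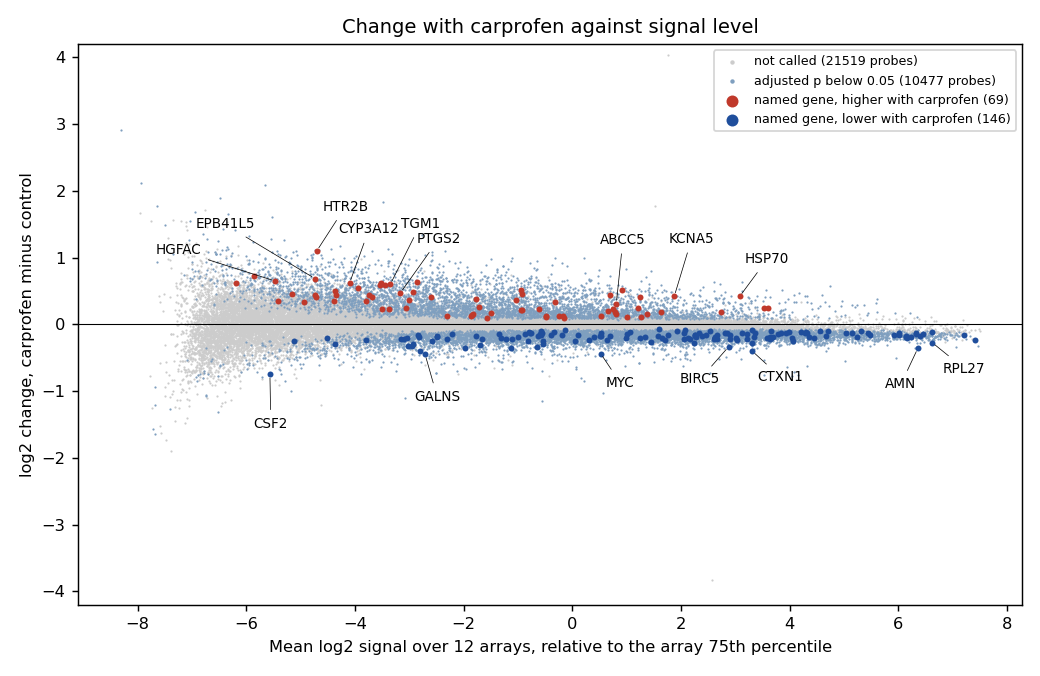
The log2 change with carprofen (vertical axis) is plotted against the mean log2 signal over 12 arrays relative to each array's 75th percentile (horizontal axis) for 31996 probes; coloured large points are the 69 named genes that were higher and the 146 that were lower. The larger rises, such as HTR2B at 1.10, sit at low signal, and the lower genes are mostly at high signal with small changes.

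The direction of a call went with probe signal. Genes that rose had a median control level of -1.92 and genes that fell one of 2.22. With the tested probes divided by signal into 5 equal groups, the share called higher was 5.73% in the dimmest group, then 16.5%, 21.3% and 16.9%, and 6.5% in the brightest. The share called lower was 1.44% in the dimmest group, then 7.55%, 19.6% and 26.2%, and 41.9% in the brightest. The median change was 0.07 in the next-to-dimmest group and -0.09 in the brightest. After quantile normalization the medians of the 5 groups lay between -0.03 and 0.01, and 9457 probes were called, 4216 higher and 5241 lower. Scale also moved the split between directions. Of the probes called, 40.9% were higher as reported and 49.6% in the authors' deposited value table, which gave 6472 calls. Of the named genes called, 32.1% were higher as reported, 42.1% after normexp background correction with quantile normalization and 43.3% in the authors' deposited value table.

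The choice of scale changed the direction of many calls. On the control arrays the 75th percentile stood 2.03 log2 units below the median of 8 spiked-in probes (-2.03 ± 0.01, SD, n = 3), and on the carprofen arrays it stood at -1.66 ± 0.03, with carprofen 1, from the control slide, at -1.67. Scaled to the spiked-in transcripts, carprofen changes therefore shifted up by 0.37. The median change over all probes was then 0.35, 24630 probes were higher and 60 lower, and of the named genes 464 were higher and none (0) lower by limma, at an adjusted p below 0.05. "Fell" and "lower" below thus mean lower relative to the 75th percentile of the array, and whether total messenger RNA per cell differed was not tested. In RNA from whole cultures, fewer cells of a kind and less RNA per cell cannot be told apart.

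Slide and drug overlap in part, since carprofen 1 alone shared the controls' slide. The fit blocked on slide takes its estimate from carprofen 1 and the controls beside it, and called 5251 probes and 95 named genes, 87 of these 95 being among the 215. Fitting slide 1 alone, where carprofen has 1 array, called 1 probe and no named gene (0), with 9670 probes and 185 genes at an unadjusted p below 0.05 in limma. Of the 215 genes, 134 kept their call when each of the 6 arrays was left out in turn, and 77 of these were also called in the slide-blocked fit. The calls that 1 array could end are named with their groups below.

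In the pathway that carprofen acts on, the gene for the inducible cyclooxygenase rose, and most of its neighbours gave no call. Of 9 tested genes of prostanoid and leukotriene synthesis and signalling, 2 were higher and none (0) lower, with a list median of 0.09. Over all named genes 11.2% were higher and 23.8% lower. PTGS2, the inducible cyclooxygenase, was measured at -3.25, -3.18 and -3.27 on the control arrays and at -2.73, -2.78 and -2.78 on the carprofen arrays. Every carprofen array lay above every control array. The change was 0.47 (SE 0.05, 1.39-fold, adjusted p = 0.000107), and 0.51 in the slide-blocked fit (adjusted p = 0.00196). It was 0.30 after normexp background correction and quantile normalization (adjusted p = 0.00081). PTGS1, the constitutive cyclooxygenase, was read near background at -6.40, -6.94 and -6.29 in control and -6.54, -6.09 and -5.89 with carprofen. These ranges overlap, and the 95% interval of its change reached from -0.95 to 1.69.

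Downstream of the cyclooxygenases, PTGES, which makes prostaglandin E, stood at -4.99 ± 0.14 in control and -5.08 ± 0.08 with carprofen (SD, n = 3; 95% interval of the change -0.33 to 0.16). The receptors for prostaglandin E gave no call either: PTGER4 changed by -0.04 (95% interval -0.13 to 0.06) and PTGER2 by 0.09 (-0.26 to 0.45). PTGFR, the receptor for prostaglandin F, was the other member called. It read -3.71, -3.73 and -3.72 in control and -3.43, -3.47 and -3.58 with carprofen, groups that do not overlap, a rise of 0.23 (SE 0.04, adjusted p = 0.00274). That call was lost after quantile normalization (adjusted p = 0.10) and with normexp (adjusted p = 0.45 with quantile normalization).

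The largest called change of any named gene was that of HTR2B, a serotonin receptor. Its level was -5.32, -5.25 and -5.31 on the control arrays and -4.15, -4.19 and -4.23 on the carprofen arrays. The arrays of each group lay close together, and the groups were far apart. The change was 1.10 (SE 0.07, 2.15-fold, adjusted p = 7.04e-06), with 1.14 on the shared slide. The fold rests on signal near background: normexp background correction with quantile normalization brought it to 0.55 (adjusted p = 0.00061). Of 8 tested amine receptor and monoamine genes, HTR2B was the only one called higher, and ADRB3, an adrenergic receptor, the only one lower, at -0.21 (adjusted p = 0.0489). Over all named genes the shares were 11.2% higher and 23.8% lower. The ADRB3 call was lost after quantile normalization (adjusted p = 0.086) and without any 1 array except carprofen 2 (adjusted p up to 0.14).

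Several genes of epithelial and barrier function rose from low levels. TGM1, the transglutaminase that crosslinks the cornified envelope, was at -3.48, -3.42 and -3.28 in control and at -2.71, -2.85 and -2.83 with carprofen. The groups did not overlap, and the change was 0.60 (SE 0.07, 1.51-fold, adjusted p = 0.000193). EPB41L5, a FERM-domain protein of cell polarity and adhesion, rose by 0.69 (SE 0.10, adjusted p = 0.00116). Its carprofen arrays were at -4.65, -4.32 and -4.30, of which carprofen 1, on the control slide, was the lowest, and all were above the controls at -5.04, -5.07 and -5.22. In the list of junction and epithelial genes 3 of 10 tested members were higher and 2 lower, against 11.2% and 23.8% over all named genes. The further riser was KRTDAP, a keratinocyte differentiation gene, by 0.34, a call lost in the slide-blocked fit (adjusted p = 0.387) and without any 1 array except carprofen 1 (adjusted p up to 0.11). The fallers were GJA1, a gap junction connexin, by -0.35 (adjusted p = 0.00395) and TJP1, a tight junction scaffold, by -0.13 (adjusted p = 0.0017). For GJA1 the slide-blocked fit gave -0.19 (adjusted p = 0.0626), and for TJP1 normexp with quantile normalization gave -0.07 (adjusted p = 0.22).

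The remaining genes with the largest rises came from varied families. HGFAC, a protease that activates hepatocyte growth factor, went from -5.67, -5.54 and -5.29 to -4.86, -4.85 and -4.83, a rise of 0.65 (SE 0.10, adjusted p = 0.0015). Normexp with the 75th percentile gave 0.23 for it (adjusted p = 0.22). The lens proteins CRYGS and CRYBA1 rose by 0.59 (SE 0.06) and 0.54 (SE 0.07), with adjusted p-values of 0.000114 and 0.000708; CRYBA1 had a second probe at 0.04. CD1A6, of the lipid antigen presenting CD1 family, rose by 0.72, PGB1 by 0.62 and the protease inhibitor SPINK5 by 0.63, and each of these calls was lost in the slide-blocked fit (adjusted p of 0.0943, 0.237 and 0.447). The same fit ended the calls of the olfactory receptor gene OR13F1B (0.62, adjusted p = 0.178) and the bitter taste receptor TAS2R41 (0.58, adjusted p = 0.218). Leaving out any 1 array ended the call of TAS2R41 (adjusted p up to 0.10), any but carprofen 1 that of SPINK5 (up to 0.14), and control 1, control 2, carprofen 2 or carprofen 3 that of PGB1 (up to 0.091). The 3 probes of SPINK5 spanned 0.30 to 1.12.

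**Figure D2:**
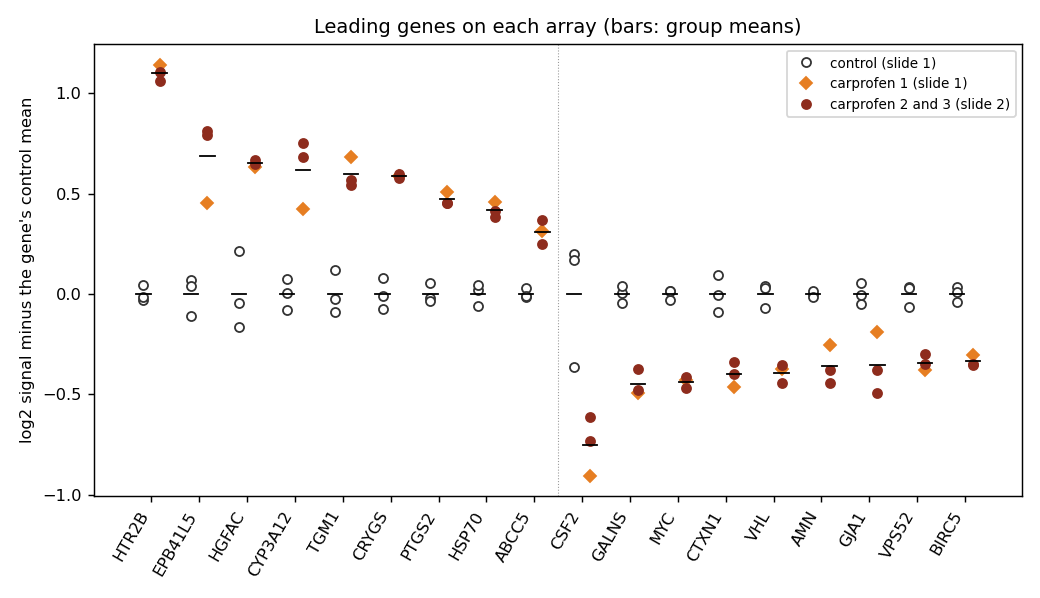
For leading genes the log2 signal of each array minus the gene's control mean is drawn (vertical axis), with open circles for controls, a diamond for carprofen 1 on the control slide, filled circles for carprofen 2 and 3, and bars for group means. In every gene drawn the 3 carprofen arrays lie on one side of the 3 controls, from HTR2B at a mean of 1.10 to CSF2 at -0.75. Most of these genes were chosen among called genes whose groups did not overlap, so this separation was set by the choice. Over all probes 47.1% did not overlap. Some large rises that the slide-blocked fit did not call, such as CD1A6 at 0.72, are not drawn.

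Of the 7 tested cell cycle genes 4 fell. MYC, the growth-promoting transcription factor, was at 0.42, 0.47 and 0.47 in control and at 0.03, -0.01 and 0.04 with carprofen. No array of one group came near the other. The change was -0.44 (SE 0.03, 1.35-fold lower, adjusted p = 2.15e-05) and -0.43 on the shared slide. BIRC5, or survivin, an inhibitor of apoptosis needed in mitosis, went from 3.05, 2.97 and 3.02 to 2.71, 2.66 and 2.67, a change of -0.33 (SE 0.04, adjusted p = 0.000368). Normexp with quantile normalization brought it to -0.15 (adjusted p = 0.039). CCND1, the cyclin that drives entry into the cycle, fell by 0.23 and CCNB3 by 0.21; the CCND1 call was lost with normexp and quantile normalization (-0.13, adjusted p = 0.075). None (0) of the 7 was higher, and the 4 that fell stand against 23.8% lower over all named genes, with a median of -0.21. BIRC5, CCND1 and CCNB3 lay in the brightest signal group, where 41.9% of all probes were lower, and MYC in the next, where 26.2% were. The other members were CDKN1B at -0.04, MDM2 at 0.05 and TERT at 0.32, without a call. Scaled to the spiked-in transcripts none of the 7 was lower, and MYC changed by -0.07 (adjusted p = 0.25).

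Apoptosis genes went both ways. Of 14 tested members 4 rose and 2 fell, against 11.2% higher and 23.8% lower over all named genes, with a median of 0.01. The protective MCL1 rose by 0.18 (adjusted p = 0.00852), BCL2 by 0.16, BCL2L2 by 0.13 and BIRC3 by 0.10, while DIABLO, a mitochondrial protein that unblocks caspases, fell by 0.26 (SE 0.03, adjusted p = 0.000165) and the pore former BAX by 0.17. DIABLO read 1.57, 1.62 and 1.65 in control and 1.37, 1.35 and 1.33 with carprofen. MCL1 read 2.60, 2.64 and 2.63 against 2.72, 2.82 and 2.85, with carprofen 1 the lowest of its group, and its call was lost in the slide-blocked fit (0.10, adjusted p = 0.205). That fit left 0 of the 4 rises and 1 of the falls, that of DIABLO (adjusted p = 0.00989). The BCL2L2 call was also lost without control 1, control 2 or carprofen 3 (adjusted p up to 0.074), and the BIRC3 call without any 1 array except control 2 (up to 0.14).

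The stress-inducible heat shock gene listed as HSP70 rose on all of its probes. Its level was 2.79, 2.88 and 2.90 in control and 3.31, 3.27 and 3.24 with carprofen, groups that do not overlap. The change was 0.42 (SE 0.04, 1.34-fold, adjusted p = 4.85e-05), its 4 probes spanned 0.39 to 0.50, and the shared slide gave 0.46. Near-identical copies of this gene may share its probes. The other heat shock members did not go along: HSPA4 fell by 0.14 (adjusted p = 0.0219), a call lost after quantile normalization (-0.01, adjusted p = 0.84) and without control 1 or carprofen 3 (adjusted p up to 0.078), and HSPB1 and HSPB8 changed by 0.00 and 0.05 without a call.

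Genes of the secretory pathway were called lower about as often as other bright probes. Of 15 tested genes of endoplasmic reticulum translocation and folding, 7 were lower and none (0) higher, with a median of -0.12. Those lower were SEC11A and SEC11C, subunits of the signal peptidase, by 0.20 and 0.22, the signal peptidase subunit SPCS2 by 0.16, the chaperone HSP90B1 by 0.13, SRP72 of the signal recognition particle by 0.13, DDOST of the oligosaccharyltransferase by 0.12 and the translocon-associated SSR1 by 0.12. SEC11C read 3.73, 3.71 and 3.73 in control and 3.56, 3.50 and 3.46 with carprofen. All 15 probes lay in the brightest of the 5 signal groups, where 41.9% of all probes were lower. The SRP72 call was lost without control 1, control 2, carprofen 2 or carprofen 3 (adjusted p up to 0.098), and the SSR1 call without control 1, control 3 or carprofen 2 (up to 0.135). In the slide-blocked fit 2 members, SEC11A and SEC11C, stayed lower. After normexp and quantile normalization 1 of the 15 was lower and the median was 0.00, and under spike-in scaling all 15 were higher.

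Lysosomal genes included the second largest fall among called genes whose groups did not overlap and whose probes exceeded background on all 6 arrays. GALNS, a sulfatase that breaks down keratan and chondroitin sulfate, went from -2.49, -2.53 and -2.45 to -2.99, -2.97 and -2.86. The groups were well apart, with a change of -0.45 (SE 0.05, adjusted p = 0.000137) that was -0.47 after normexp and quantile normalization and -0.50 on the shared slide. Of 20 tested lysosomal genes 8 were lower, 2 higher and 10 not called, against 23.8% lower and 11.2% higher over all named genes, and the median of -0.05 is close to the -0.04 of all named genes. The protease CTSD fell by 0.25, the sulfatase ARSA by 0.19, SGSH by 0.15, GUSB by 0.14, FUCA1 by 0.13 and the galactosidase GLB1 by 0.11. The risers were CTSS, a protease of antigen presentation, by 0.41 (adjusted p = 0.00218) and GALC, which degrades galactosylceramide, by 0.23 (adjusted p = 0.00014). In the slide-blocked fit 5 were lower and 2 higher. Normexp with the 75th percentile gave 4 lower and 0 higher, and normexp with quantile normalization 5 lower and 1 higher. Of the smaller falls, those of SGSH, FUCA1 and GLB1 were each lost without 4 of the 6 arrays in turn (highest adjusted p of 0.075, 0.084 and 0.12): control 1 and carprofen 3 for each, with control 3 and carprofen 2 for SGSH, control 2 and carprofen 2 for FUCA1, and control 2 and carprofen 1 for GLB1. GLB1 had 7 of 9 probes lower, from -0.34 to 0.02.

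Of 9 tested genes of metal handling, iron and antioxidant defence, 8 were lower and none (0) higher, against 23.8% lower over all named genes and 41.9% lower over all probes of the brightest signal group. The metallothioneins MT2A and MT1E, which bind zinc and copper, fell by 0.28 (SE 0.05, adjusted p = 0.00192) and 0.25 (SE 0.03, adjusted p = 0.000196). MT2A read 2.42, 2.38 and 2.38 in control and 2.06, 2.07 and 2.19 with carprofen. The others were the ferritin light chain FTL (-0.19), catalase CAT (-0.17), the transferrin receptor TFRC (-0.16), superoxide dismutase SOD1 (-0.15), glutathione peroxidase GPX1 (-0.13) and the thioredoxin reductase TXNRD1 (-0.10, adjusted p = 0.0499). Of the 9 probes 6 were in the brightest signal group. Without 1 array the calls of TFRC (control 1, control 3, carprofen 1, carprofen 3), SOD1 (control 2, control 3, carprofen 2, carprofen 3), GPX1 (control 1) and TXNRD1 (all but carprofen 1) were lost, with adjusted p-values of up to 0.081, 0.074, 0.053 and 0.15. The list kept 4 lower members in the slide-blocked fit and 2 after normexp and quantile normalization, and all but 1 of the 9 were higher under spike-in scaling.

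Drug and steroid metabolising genes were the list with the highest median, 0.30, with 5 of 14 tested members higher and none (0) lower, against 11.2% and 23.8% over all named genes. CYP3A12, a cytochrome P450 of drug oxidation, was at -4.40, -4.49 and -4.33 in control and at -3.98, -3.72 and -3.65 with carprofen, carprofen 1 being nearest to the controls. The rise was 0.62 (SE 0.11, adjusted p = 0.00212), and 0.42 in the slide-blocked fit (adjusted p = 0.0506). HSD17B14, a steroid dehydrogenase, rose by 0.38 (adjusted p = 6.8e-05), CYP4A11, a fatty acid hydroxylase, by 0.44 (adjusted p = 0.00839), the aromatase CYP19A1 by 0.35 and the steroid hydroxylase CYP21A2 by 0.25. Of the 3 CYP4A11 probes 1 was called, with a range of 0.13 to 0.44. Most members were dim, 10 of the 14 probes lying in the dimmer 2 of the 5 signal groups. In the slide-blocked fit HSD17B14 alone stayed higher, and the list median was -0.0042. The CYP19A1 call was lost without control 2, control 3, carprofen 2 or carprofen 3 (adjusted p up to 0.11), and the CYP21A2 call without control 2 or carprofen 3 (up to 0.051).

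Of 4 tested ABC transporters 2 rose, against 11.2% higher over all named genes. ABCC5, an exporter of cyclic nucleotides, went from 0.68, 0.64 and 0.64 to 0.97, 1.02 and 0.90, a rise of 0.31 (SE 0.03, adjusted p = 0.000227) that held on all 3 of its probes. ABCA4, a retinoid transporter, rose by 0.52 (adjusted p = 0.0176), with carprofen arrays at 1.01, 1.21 and 1.31, a call lost in the slide-blocked fit (0.35, adjusted p = 0.262) and without carprofen 2 or 3 (adjusted p up to 0.064). ABCB1, the multidrug efflux pump, changed by -0.01 without a call on the probe read here, but its dimmer probe was called higher at 0.68.

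Genes of hypoxia and vessel formation were split. VHL, which marks hypoxia-inducible factors for destruction, fell from -2.66, -2.55 and -2.56 to -2.96, -3.03 and -2.94, a change of -0.39 (SE 0.06, adjusted p = 0.000843). VEGFA, the main angiogenic factor, rose from 3.33, 3.34 and 3.28 to 3.56, 3.52 and 3.63, by 0.25 (SE 0.04, adjusted p = 0.00124), on its brighter probe, whereas a second probe was called lower at -0.21. It was 1 of 3 genes with probes called in both directions, so no direction can be given for the gene. NOS3, which makes nitric oxide, rose by 0.21 on 1 of 4 probes, which ran from -0.14 to 0.21. The glycolytic GAPDH fell by 0.24. Of 7 tested members 2 were called higher, 1 of them VEGFA on its brighter probe, and 2 lower. Over all named genes the shares were 11.2% and 23.8%. Both the NOS3 and the GAPDH call were lost in the slide-blocked fit (adjusted p of 0.431 and 0.63) and without any 1 array except carprofen 1 (adjusted p up to 0.13 and 0.096).

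Among 19 tested cytokine and chemokine genes 3 were higher and 2 lower, against 11.2% and 23.8% over all named genes, with a median of 0.03. CSF2, which drives granulocyte and macrophage growth, had the largest called fall of any named gene, -0.75 (SE 0.21, 1.68-fold, adjusted p = 0.0243). Its control arrays were uneven at -5.08, -5.65 and -5.11, its carprofen arrays were at -6.19, -5.89 and -6.01, and the groups did not overlap. The call was lost in the slide-blocked fit (adjusted p = 0.104), with normexp and the 75th percentile (-0.35, adjusted p = 0.21), under spike-in scaling (-0.38, adjusted p = 0.13) and without control 1, control 3, carprofen 1 or carprofen 3 (adjusted p of 0.083, 0.08, 0.068 and 0.059). The second CSF2 probe stood at -0.36 without a call. CXCL8, a neutrophil chemokine, fell by 0.12 (adjusted p = 0.0252), and normexp with quantile normalization gave -0.02 (adjusted p = 0.80). Its call was also lost without control 1, control 3, carprofen 1 or carprofen 2 (adjusted p up to 0.076). Of the 4 CXCL8 probes 1 was called, with a range of -0.12 to -0.02. CCL25, a chemokine for gut-homing T cells, rose by 0.43 (adjusted p = 0.011), with a slide-block adjusted p of 0.122. CD40LG, a T cell signal to B cells, rose by 0.21 and IL12A, a cytokine subunit, by 0.15, the latter call being lost without control 2, control 3, carprofen 2 or carprofen 3 (adjusted p up to 0.14). The interferon-induced MX1 rose by 0.10 (adjusted p = 0.0116), the only call among 6 antiviral and pattern recognition genes, against 35% called over all named genes. Its slide-block adjusted p was 0.125. Its other probe stood at -0.01.

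Of 12 tested matrix genes 6 fell, 1 rose and 5 gave no call, with a median of -0.17, against 23.8% lower and 11.2% higher over all named genes. BGN, the proteoglycan biglycan, went from 0.44, 0.46 and 0.42 to 0.22, 0.17 and 0.21, a change of -0.24 (SE 0.03, adjusted p = 0.000541). The protease inhibitors TIMP2 and TIMP1 fell by 0.22 and 0.18, the protease MMP3 by 0.19, and COL1A1 and COL1A2 by 0.18 and 0.16. The exception was COL7A1, the anchoring fibril collagen, which rose from -0.49, -0.52 and -0.50 to -0.18, -0.20 and -0.13, by 0.34 (SE 0.03, adjusted p = 0.000144), on both of its probes. COL1A1 and COL1A2 were also the 2 of 4 fibroblast markers called, both lower, while DCN and PDGFRB changed by -0.15 and 0.40 without a call. COL1A1 had 2 of 4 probes called lower, with a range of -0.34 to -0.07. The COL1A2 call was lost after quantile normalization (-0.04, adjusted p = 0.41) and the TIMP2 call without control 2, control 3 or carprofen 2 (adjusted p up to 0.070). In the slide-blocked fit COL7A1 stayed higher and BGN and COL1A1 lower, and 9 of the 12 matrix genes were higher under spike-in scaling. Of the melanocyte genes, MITF fell by 0.12 (adjusted p = 0.00797; slide-blocked 0.102) and the other 4 tested gave no call. The leukocyte markers CD4 and CD8A, the endothelial markers VWF and SELE and the epithelial marker CLDN3 gave no call either. CD8A, near background, passed the threshold in the slide-blocked fit (adjusted p = 0.049), carprofen 1 at -4.11 being far above carprofen 2 and 3 at -5.93 and -5.60.

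Of 14 tested vesicle traffic genes 7 were lower and 1 higher, against 23.8% and 11.2% over all named genes, and 6 of the 14 lay in the brightest signal group, where 41.9% of probes were lower. RAB8A, a GTPase of export to the cell surface, fell from -2.89, -2.78 and -2.69 to -3.12, -3.13 and -3.09, by 0.33 (SE 0.05, adjusted p = 0.0013). VPS52, of the tether that returns endosomes to the Golgi, fell by 0.34 on the probe read here, with 1 of its 4 probes called and a range of -0.34 to 0.10. RABAC1, RAB7A, RAB4B, RAB11A and RAB2A fell by 0.21, 0.18, 0.16, 0.11 and 0.08, and RAB5A, of early endosomes, rose by 0.12. The calls of RAB7A and RAB11A were lost without any 1 of the arrays (adjusted p up to 0.13 and 0.12), that of RAB2A without control 2, carprofen 2 or carprofen 3 (up to 0.094) and that of RAB5A without control 2 (0.051). In the slide-blocked fit 4 stayed lower and 0 higher. Under spike-in scaling 12 of the 14 were higher.

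Among 17 tested solute carriers 4 fell and 1 rose, against 23.8% lower and 11.2% higher over all named genes. SLC35B2, which brings the sulfate donor into the Golgi, went from -0.47, -0.43 and -0.44 to -0.69, -0.73 and -0.80, a change of -0.30 (SE 0.03, adjusted p = 0.000123). SLC35A2, SLC29A1 and SLC11A1, which carry a nucleotide sugar, nucleosides and metal ions, fell by 0.14, 0.12 and 0.11. Their calls were lost in the slide-blocked fit, and those of SLC35A2 and SLC11A1 also without 5 of the 6 arrays in turn, carprofen 3 and carprofen 1 being the exceptions (adjusted p up to 0.12 and 0.097). SLC3A1, an amino acid transporter subunit of the kidney, rose from -3.05, -3.09 and -3.03 to -2.62, -2.48 and -2.61, by 0.49 (SE 0.05, adjusted p = 0.000155), with both probes called. KCNA5, a voltage-gated potassium channel, rose from 1.73, 1.71 and 1.70 to 2.01, 2.14 and 2.26, by 0.42 (SE 0.07, adjusted p = 0.00235). It was 1 of 2 rises, with TRPV4 (0.12, adjusted p = 0.0436), among 16 channels and pumps, against 11.2% higher over all named genes. The TRPV4 call was lost after quantile normalization (adjusted p = 0.057) and without any 1 array except carprofen 3 (up to 0.14).

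The single genes with the largest falls beyond these lists were CTXN1, a membrane protein of neurons, at -0.40 (SE 0.06, adjusted p = 0.000746), AMN, the membrane partner of the vitamin receptor cubilin, at -0.36 (SE 0.04, adjusted p = 0.00028), the kallikrein protease KLK1 at -0.35 (adjusted p = 0.0453) and the sialomucin PODXL at -0.33 (adjusted p = 0.0201). AMN read 6.62, 6.63 and 6.60 in control and 6.36, 6.17 and 6.24 with carprofen. Normexp with quantile normalization left AMN at -0.16 (adjusted p = 0.016). KLK1 lost its call without control 1, 2 or 3 or without carprofen 1 or 2, at adjusted p-values of 0.057 to 0.13, and PODXL lost it without control 1 (adjusted p = 0.072) or carprofen 1 (adjusted p = 0.053).

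The remaining lists are set beside 11.2% higher and 23.8% lower over all named genes. Of 4 tested ribosomal protein genes 2 were lower, with RPL27 falling by 0.27 (adjusted p = 0.000264). All 4 lay in the brightest signal group, where 41.9% of probes were lower. Of 4 nuclear receptors PPARD, a fatty acid sensor, fell by 0.17 and ESRRA, a regulator of mitochondrial genes, by 0.09, with adjusted p-values of 0.00823 and 0.0095, and of 0.122 and 0.058 in the slide-blocked fit. Of 12 growth factor signalling genes the kinase AKT2 fell by 0.19 and the receptor FGFR2 by 0.17, both lost in the slide-blocked fit (adjusted p of 0.116 and 0.236), AKT2 also without carprofen 3 (0.052). The second probes of PPARD, ESRRA and FGFR2 stood at -0.04, -0.03 and 0.06 without a call. Of 5 tested lipid metabolism genes 1 was higher and 1 lower. Of 9 cytoskeleton genes 1 was higher, and of 17 MHC region genes 3 were lower. Those higher were ADIPOQ, the hormone adiponectin (0.41), and TNNI3, cardiac troponin (0.35). The mitochondrial carrier UCP2 (-0.18), the class I molecule DLA-64 (-0.20), VPS52 and PSMB9, of the immunoproteasome (-0.16), fell. The calls of ADIPOQ, TNNI3, UCP2, DLA-64 and PSMB9 were lost in the slide-blocked fit (adjusted p of 0.393, 0.261, 0.0509, 0.14 and 0.0799). Those of ADIPOQ (all but carprofen 1), TNNI3 (control 1, control 2, carprofen 2, carprofen 3) and UCP2 (control 1, control 2, carprofen 1, carprofen 2) were lost without 1 array (up to 0.115, 0.10 and 0.077).

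**Figure D3:**
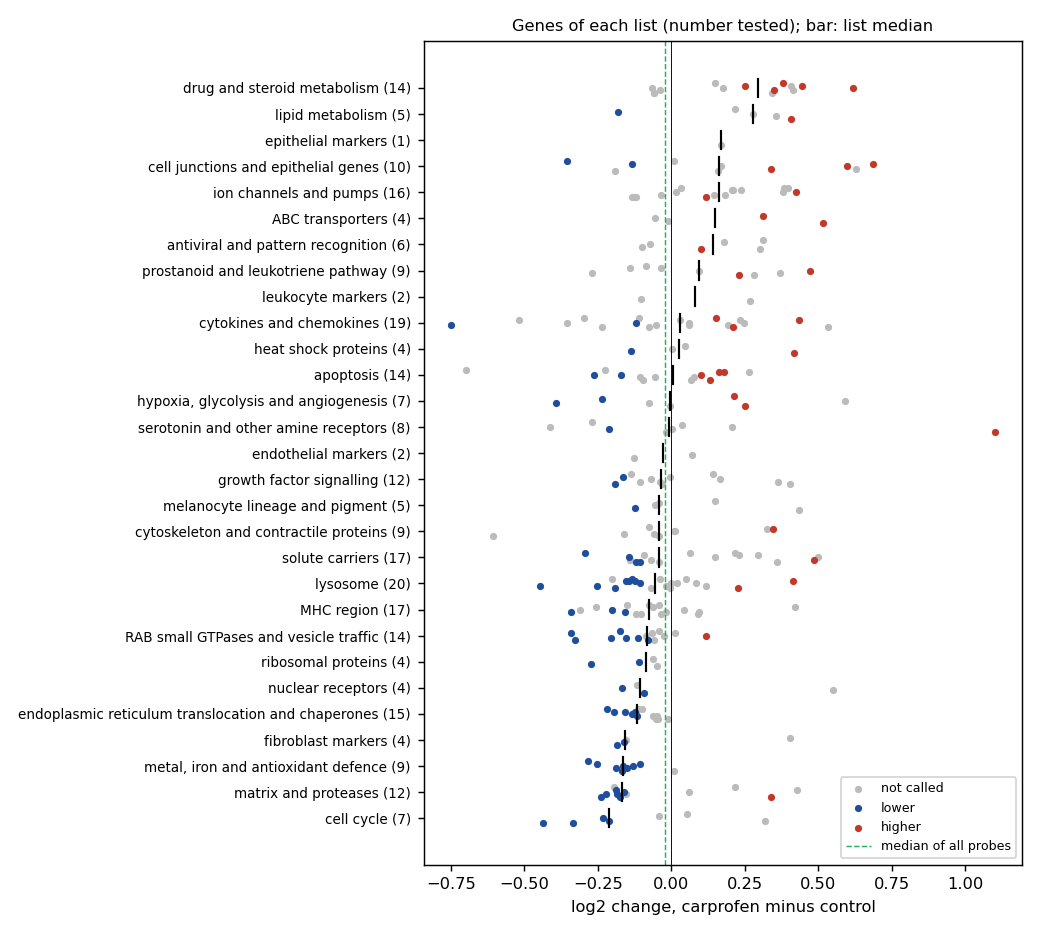
Each point is a tested gene at its log2 change with carprofen (horizontal axis), in rows by gene list with the number tested; red is higher, blue lower, grey not called, bars are list medians, and the dashed line is the median of all probes at -0.02. Drug and steroid metabolism has a median of 0.30 and the cell cycle list one of -0.21, and the points run from -0.75 (CSF2) to 1.10 (HTR2B).

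HTR2B went from 0.55 with normexp and quantile normalization to 1.47 under spike-in scaling. GALNS and MYC were -0.45 and -0.44 as reported, -0.47 and -0.40 with normexp and quantile normalization, and -0.08 and -0.07 under spike-in scaling, without a call there (adjusted p of 0.21 and 0.25). PTGS2 and HSP70 were called under each scale, filter and block tried and without each single array, and were lost on slide 1 alone. For HSP70 the change was 0.44 with normexp and quantile normalization and 0.79 under spike-in scaling.

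**Figure D4:**
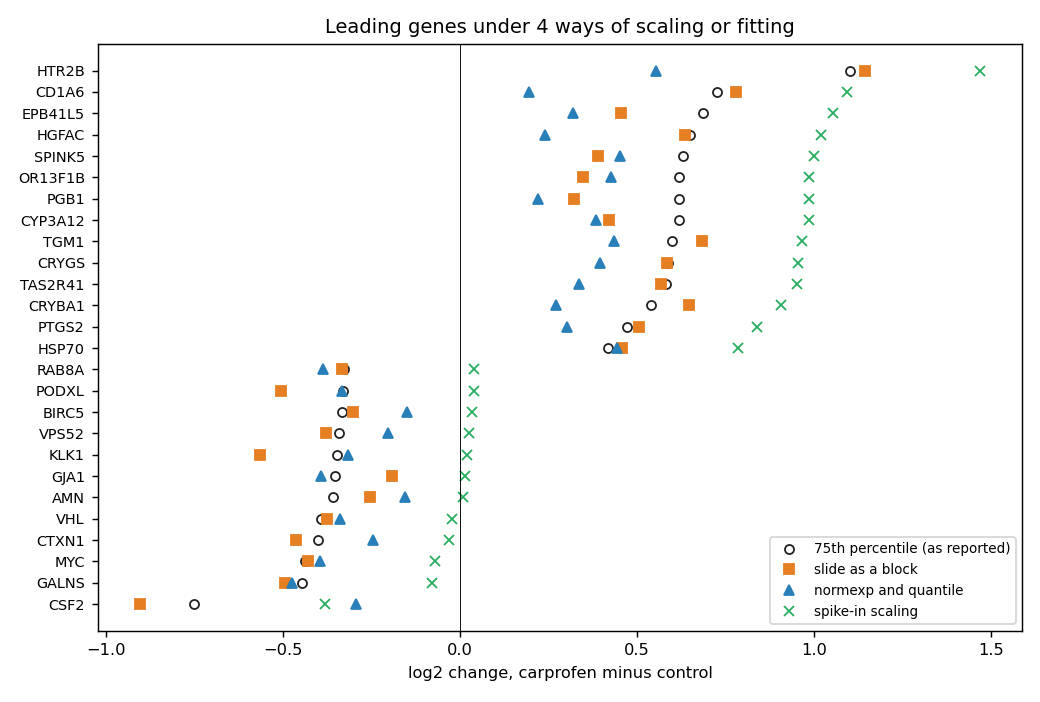
The log2 change with carprofen (horizontal axis) of the genes with the largest changes, PTGS2 and HSP70 is drawn for the reported scale (open circles), the slide-blocked fit (squares), normexp with quantile normalization (triangles) and spike-in scaling (crosses). Under spike-in scaling each gene lies to the right of its reported value: MYC moves from -0.44 to -0.07 and HTR2B from 1.10 to 1.47.

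The carprofen arrays were also set against those of the other drugs, piroxicam, an oxicam, and robenacoxib, a phenylacetic acid derivative. The sample labels give piroxicam at 116 µM and robenacoxib at 156 µM, beside carprofen at 779 µM. The treatment protocol gives piroxicam at 779 µM and robenacoxib at 156 µM, beside carprofen at 116 µM. In neither version was a dose matched, which drug had the higher dose is not settled, and the differences are between the groups as treated. Of the 31996 probes 12005 (37.5%) differed between carprofen and piroxicam, 18.5% higher and 19% lower with carprofen, and 2596 (8.11%) between carprofen and robenacoxib, 3.76% higher and 4.35% lower. Of the named genes 78 (12.7%) were higher and 127 (20.7%) lower than with piroxicam, and 24 (3.91%) and 29 (4.72%) than with robenacoxib. In these 2 direct comparisons p-values were adjusted over all probes of each. The split between directions depended on the scale here too. Scaled to the spiked-in transcripts, 15942 probes were higher and 1042 lower with carprofen than with piroxicam. Against robenacoxib 1900 were then higher and 174 lower. The gene differences between drugs below are on the reported scale. Carprofen shared a slide with piroxicam but none with robenacoxib. Blocked on slide the counts were 9730 and 82, and the 2 carprofen and 2 piroxicam arrays on slide 2 alone gave 4581 calls. Without carprofen 2 or 3 or any robenacoxib array the second count was 1163 to 1635.

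MYC stood at 0.02 ± 0.03 with carprofen, 0.46 ± 0.03 in control, 0.53 ± 0.06 with robenacoxib and 1.09 ± 0.02 with piroxicam (SD, n = 3 each). Carprofen was thus below piroxicam by 1.07 (95% interval of the difference -1.15 to -1.0, adjusted p = 1.12e-07; -1.09 within slide 2) and below robenacoxib by 0.51 (-0.59 to -0.44, adjusted p = 8.14e-05). CXCL8 was at -1.11 ± 0.04 with carprofen, -0.99 ± 0.02 in control, -0.50 ± 0.04 with piroxicam and -0.58 ± 0.05 with robenacoxib, with differences of -0.61 and -0.54 (adjusted p of 2.23e-06 and 9.07e-05).

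TGM1 stood at -2.80 ± 0.07 with carprofen, -3.39 ± 0.11 in control, -4.00 ± 0.09 with piroxicam and -3.21 ± 0.05 with robenacoxib. The carprofen level was above piroxicam by 1.21 (adjusted p = 1.61e-06; 1.15 within slide 2) and above robenacoxib by 0.41 (adjusted p = 0.00706). HGFAC differed from piroxicam by 1.32 and from robenacoxib by 0.52 (adjusted p of 1.43e-05 and 0.0178). HTR2B was at -4.19 ± 0.04 with carprofen, -4.45 ± 0.13 with robenacoxib and -4.87 ± 0.08 with piroxicam, against -5.29 ± 0.04 in control. It was higher with carprofen by 0.68 than with piroxicam (adjusted p = 4.41e-05) and by 0.26 than with robenacoxib (adjusted p = 0.0452).

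Other leading genes set carprofen apart from 1 of the drugs. PTGS2 was at -2.76 ± 0.03 with carprofen, -2.93 ± 0.06 with robenacoxib and -3.73 ± 0.08 with piroxicam, against -3.23 ± 0.05 in control. Carprofen exceeded piroxicam by 0.96 (95% interval 0.86 to 1.07, adjusted p = 7.84e-07; 0.90 within slide 2), and the difference from robenacoxib was 0.17 (0.06 to 0.27, adjusted p = 0.0576). GALNS was 0.42 lower than with piroxicam (change -0.42, adjusted p = 9.8e-05), and from robenacoxib it differed by -0.05 (-0.15 to 0.05, adjusted p = 0.547). HSP70 gave the opposite picture, 0.04 from piroxicam (-0.04 to 0.12, adjusted p = 0.425) and 0.31 above robenacoxib (0.23 to 0.39, adjusted p = 0.0017). CCND1 lay 0.26 below piroxicam (change -0.26, adjusted p = 6.54e-05) and differed from robenacoxib by -0.01 (-0.08 to 0.05, adjusted p = 0.793).

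**Figure D5:**
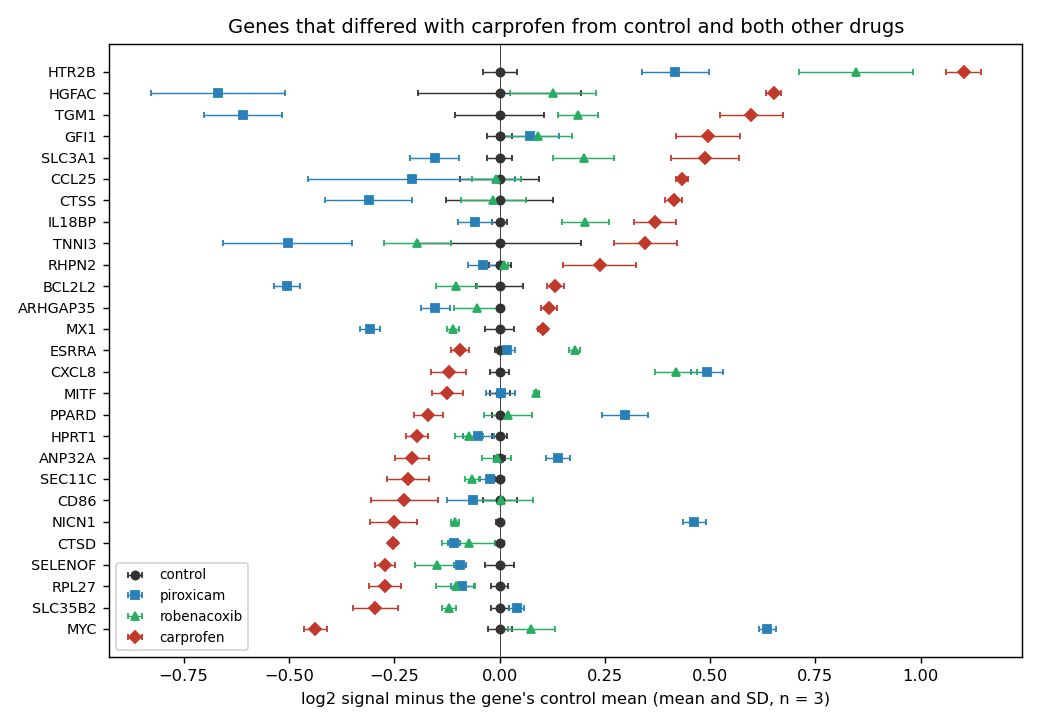
Group means and SDs (n = 3 arrays) of the log2 signal minus the gene's control mean are drawn for the 27 genes that were called on the same side of control, piroxicam and robenacoxib with carprofen; they were chosen by these comparisons, which share the carprofen arrays. MYC is the lowest carprofen point at -0.44 with piroxicam at the opposite side of control, and HTR2B the highest at 1.10 with both other drugs above control.

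Of the 27 genes in that plot, 13 were higher and 14 lower with carprofen. Apart from those described above, the higher ones included GFI1, a transcriptional repressor of blood cells (0.49 above control), IL18BP, a decoy for an inflammatory cytokine (0.37), and ARHGAP35, a GTPase-activating protein (0.12). The lower ones included SELENOF, a selenoprotein of the endoplasmic reticulum (-0.27), NICN1, of the tubulin glutamylating complex (-0.25), the costimulatory receptor ligand CD86 (-0.23), ANP32A, an acidic nuclear phosphoprotein (-0.21), and HPRT1, of purine salvage (-0.20). NICN1 stood at -2.87 ± 0.06 with carprofen, -2.61 ± 0.01 in control and -2.15 ± 0.03 with piroxicam. ARHGAP35 lost its call against control without control 2 or carprofen 2 (adjusted p up to 0.056), and ARHGAP35 and CD86 in the slide-blocked fit (adjusted p of 0.117 and 0.0797).

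Most probes had no name in the gene table used, and some changes among them were larger than any called change of a named gene. Probe A_11_P0000041829 rose from -4.15, -4.11 and -4.00 to -2.25, -2.22 and -2.27, a change of 1.84 (SE 0.06, 3.58-fold, adjusted p = 1.21e-06), and probe A_11_P081236, from near background, rose by 2.09 (SE 0.21, adjusted p = 0.000121). Probe A_11_P0000040421 fell from 0.21, 0.14 and 0.14 to -0.98, -0.99 and -0.99, a change of -1.15 (SE 0.04, 2.22-fold, adjusted p = 9.62e-07), and probe A_11_P0000026566 changed by -1.11 (SE 0.09, adjusted p = 4.04e-05). In each of them the 3 carprofen arrays lay outside the 3 controls.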

How the data were processed

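The members and gene lists were chosen with earlier results of these data known. The deposited scanner files hold spot intensity, read with Feature Extraction 10.7.3.1 per the file headers and background-subtracted but not scaled between arrays. The authors' deposited value table, on a log2 scale judged from its values, comes from limma (version 3.24.15 in the submitters' processing notes), its background correction and normalization not being given in the sources used here. It served as an alternative.

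Intensities were analysed in R 4.3.3 with limma 3.58.1 and the data.table package (version 1.17.8) as log2 of the processed signal minus each array's 75th percentile, without control spots or spots with an outlier flag, spots of a probe averaged. Of 43603 probes, the 31996 tested exceeded background clearly in each of the 3 arrays of some group. One model (lmFit, eBayes, 8 residual degrees of freedom) covered all 12 arrays, with two-sided tests. The median SE of a change was 0.05, and the number of arrays limits the precision; 68 tested probes lacked at least 1 array. The fit was tested on simulated data with 200 changed probes.

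Names came from a RefSeq gene list of the assembly UU_Cfam_GSD_1.0 through each probe's accession, unversioned, which matched 1313 probes (3.01%) with 832 symbols, of which 614 were tested and 575 exceeded background on the 6 arrays. Where a gene had several tested probes, the one with the highest mean over the arrays stands for it. Of the 215 genes that differed, 98 had several tested probes, and in 40 of these all probes were called the same way. Genes were named if they were among the 12 largest called changes in each direction with groups that did not overlap, among the 2 largest called changes of a list, or on a short list by name; further members and the genes of the drug comparison were named after their values were seen. Slides were told apart by barcode and scan. Normexp used the median signal, since the mean signal is not among the columns. No sequences or coordinates were used here. Some genes are not reported here.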

Additional observations from a re-analysis of the deposited data

How the results depend on the processing

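Counts for carprofen against control stayed within 1.5 times of the 10477 probes and 215 genes under quantile normalization, both filters on dim probes, slide as a random block, the replicate block (8995 probes, 175 genes) and the fit of the 2 groups alone. Elsewhere they were 5402 probes and 114 genes (normexp, 75th percentile), 6820 and 133 (normexp, quantile), 24690 and 464 (spike-in scaling), 6472 and 127 (authors' values), 5251 and 95 (slide as a block) and 1 and 0 (within slide 1). Leaving out 1 array gave 8063 to 10446 probes and 155 to 220 genes.

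For carprofen against piroxicam the 12005 probes became 6740 (normexp, 75th percentile) and, chosen after seeing the data, 4581 (within slide 2), and without 1 array 10248 to 11382. Spike-in scaling gave 16984 probes against piroxicam and 2074 against robenacoxib, most of them higher with carprofen. For carprofen against robenacoxib the 2596 became 213 (normexp, 75th percentile), 662 (normexp, quantile), 555 (authors' values), 1401 (no filter), 82 (slide as a block), 1404 (random block), 1379 (replicate block), 232 (2 groups alone) and 1163 to 2279 (without 1 array). Within slide 1, fewer arrays were fitted; the causes of the other differences were not tested. Same-numbered control and carprofen arrays deviated together at correlations of -0.16 to 0.19, so the numbers were not taken as pairs.

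Signs turned under spike-in scaling for ADRB3 (0.16), AKT2 (0.17), AMN (0.0087), BGN (0.13), BIRC5 (0.033), COL1A1 (0.18), COL1A2 (0.21), CXCL8 (0.25), DIABLO (0.10), DLA-64 (0.17), ESRRA (0.27), FGFR2 (0.20), GJA1 (0.014), HSPA4 (0.23), KLK1 (0.021), MITF (0.24), MT1E (0.12), MT2A (0.084), PODXL (0.038), PPARD (0.20), PTGER4 (0.33), PTGES (0.28), RAB8A (0.039), RPL27 (0.094), SEC11A (0.17), SEC11C (0.15), SLC35B2 (0.072), UCP2 (0.19) and VPS52 (0.026), the scale itself moving by 0.37. PTGER2 turned under normexp with the 75th percentile (-0.043) and without control replicate 2 (-0.042), and PTGER4 without carprofen replicate 3 (0.0016; -0.059 without carprofen replicate 2); PTGER2 and PTGER4 gave no call in the reported fit. Signal over background limits the dim genes.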
